A study of Mus musculus with 18 samples.

Results

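Axon guidance genes code for the ligands and receptors that steer growing axons, and they were read here in the epithelium of the mouse mammary gland. The members were chosen by gene symbol alone: Eph receptors and ephrins, semaphorins of classes 3 to 7 with their plexin and neuropilin receptors, Slits and Robos, and netrins with Unc5 receptors. The symbol patterns matched 69 rows of the deposited table, in which Ntn5 held 3 rows and was read from the one with the highest mean, so 67 of 46257 genes were members. Of these, 65 passed the filter on low values (at least 10 in no fewer than 2 libraries). Epha6, with values from 0 to 3, and Ntn5, with values from 0 to 9, did not pass, and no test was made of them. The 65 that passed were 13 Eph receptors, 8 ephrins, 20 semaphorins, 9 plexins, 2 neuropilins, 3 Slits, 4 Robos, 2 netrins and 4 Unc5 receptors.

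Ephrins are tethered to the membrane and bind Eph receptor tyrosine kinases on touching cells, which signals into both cells and sorts cell types from each other. Semaphorins, secreted or membrane-bound, signal through plexins, with neuropilins as co-receptors for most class 3 semaphorins. Slits are secreted ligands of Robo receptors, and netrins bind Dcc, Neo1 and Unc5 receptors. In the mammary gland, Slits with Robo1, and Ntn1 with Neo1, are known for holding the basal and luminal cell layers of the duct together, and Robo1 also limits the growth of the basal layer.

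RNA was sequenced from 3 sorted cell populations at 3 stages. Luminal cells, which line the duct, had been split into those positive (ER+) and those negative (ER-) for the estrogen receptor, and the contractile basal cells lie outside them, all taken from glands at puberty, in adults and at mid pregnancy. Every group shared the genotype ERrtTA/TetOCre/rosaYFP, a tetracycline-controlled Cre transgene with a fluorescent reporter, and the labels give no doxycycline treatment, sorting gate or exact age. The 9 groups held 2 libraries each, 18 in all, and the groups follow the sample titles, since the cell type label of the basal samples of puberty and pregnancy names them as luminal. The labels do not say that the replicates came from separate animals, so a p-value here covers only how these samples vary, and that spread may be technical. Values are read counts scaled to about 20000000 per library. Fold changes are given on the log2(value + 1) scale with a standard error (±), and limma supplied the p-values, adjusted by Benjamini-Hochberg across the 22315 tested genes. Each pair of values gives replicate 1 and then replicate 2.

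Inferred depth was 2406265 to 11292217 reads in genes per library, and lowest in the 4 adult luminal libraries (2406265 to 3165234), where 1 read is worth up to 8.25 on the scale of the values. Basal markers followed the titles, except Tagln in adults, at 146 and 338 in basal and 311 to 1185 in luminal libraries. Summed over 10 genes, basal markers stood at 163287 to 321011 in basal libraries and at 959 to 39230 in luminal ones, and all 10 were above 0 in every library. Luminal marker sums (6 genes) were 63733 and 51396 in adult basal libraries, 17185 to 43048 in other basal ones and 59636 to 165566 in luminal ones. Milk protein sums (7 genes) in adult basal libraries were 271424 and 38765. At puberty, ER+ marker sums (7 genes) were 6220 and 32198 in basal and 20964 and 17744 in ER- libraries. In ER- libraries they were 34255 and 45024 in adults and 6429 and 7535 in pregnancy. What these contributed was not tested. In both luminal populations of puberty, replicate 1 stood apart from replicate 2. Endothelial markers, summed over 10 genes, were at 13915 against 2962 in ER+ libraries and at 11249 against 2299 in ER- libraries, and basal markers were at 12468 against 959 and at 13800 against 3301. The members at least 3-fold higher in replicate 1 in both populations, of those at 50 or more there, were 8: Nrp2, Plxna2, Plxna4, Plxnd1, Robo4, Sema3g, Sema6b and Sema7a. In pregnancy, ER+ marker sums (7 genes) were 80885 and 32233 in ER+ libraries, where puberty and adult ER+ libraries held 171102 to 215693. Exons of 16 of the 66 annotated members overlap those of another gene, among those described below Epha1, Epha10, Ephb1, Ephb4, Efna4, Sema4a, Sema4c, Plxna1, Plxna4, Plxnb1, Plxnc1, Nrp1 and Unc5a. The use of strand is not given in the sources used here, so reads of such pairs cannot be told apart. In bulk RNA, fewer cells of a type and less RNA per cell cannot be told apart.

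The first comparison, of basal with luminal cells at all 3 stages, asks which cell layer carries which guidance genes. The members lay mostly on the basal side: 44 of 65 were higher in basal cells and 5 were lower, while over all tested genes 20.9% were higher and 21.5% lower. Their median log2 fold change was 1.45, against -0.03 over all tested genes. Semaphorins counted 15 higher and 1 lower of 20, Eph receptors 10 and 0 of 13, and ephrins 6 and 1 of 8. Plexins and neuropilins counted 6 higher and 2 lower of 11, Slits and Robos 5 and 0 of 7, and netrins with Unc5 receptors 2 and 1 of 6. Within puberty alone 32 members were higher and 5 lower (all genes 11.3% and 10.2%), within adults 40 and 3 (18.6% and 12.3%), and within pregnancy 24 and 5 (8.64% and 11.1%). Of the 44 members, 18 were called higher within all 3 stages, 12 within 2, 13 within 1 and 1 within none. In at least 1 stage 5 of them had a fold change of the opposite sign (Efna2, Epha1, Epha10, Sema3e and Sema4a). Without the puberty luminal libraries of replicate 1, an alternative chosen after seeing the data, the counts were 45 and 5.

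**Figure D1:**
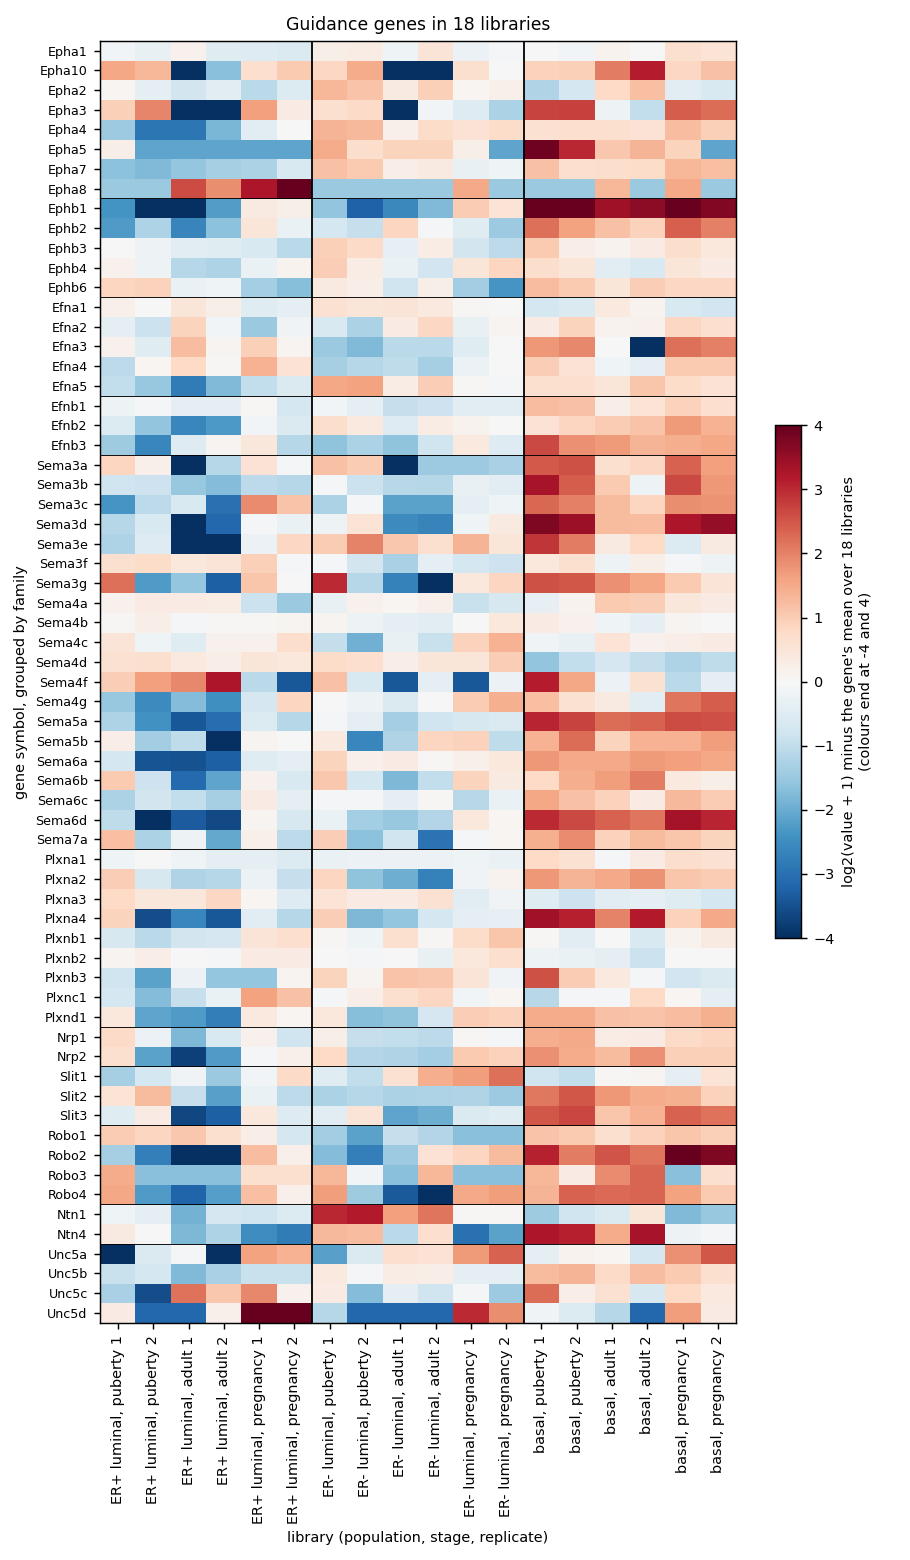
Heat map of the 65 tested guidance genes (rows, by family) in 18 libraries (columns, by population, stage and replicate). Colour gives log2(value + 1) minus the gene's mean over the 18 libraries, and the block of 6 basal libraries on the right is redder than the luminal blocks for most rows, with 44 of 65 genes called higher there.

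Other cell types also differed between these libraries. Endothelial marker sums were 5804 to 16290 in basal libraries and 843 to 13915 in luminal ones, fibroblast sums (8 genes) 16153 to 158555 and 6890 to 81559, and pericyte sums (6 genes) 8947 to 13397 and 4911 to 10287. Notch3 made up most of the luminal pericyte sums and was lower in basal libraries (1692 to 2804) than in luminal ones (4329 to 6642). The rest of that list was higher in basal libraries within each stage, such as Rgs5 (4068 to 5783 against 69 to 2638). Schwann cell sums (5 genes) were 552 to 11210 in basal libraries and 747 to 4625 in luminal ones. Their part in the basal results was not tested.

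Per kilobase of exon, Epha2 had the highest level of the Eph receptors in 17 of 18 libraries, from 354.9 to 1883.8 per kilobase, and Ephb4 in the remaining 1. Among plexins Plxnb2 led in all 18 libraries, at 526.6 to 1533.5 per kilobase. Slit3 led the Slits in all 18, at 10.4 to 840.6 per kilobase, and Robo1 led the Robos in 15. These orders depend on the lengths used, which join the exons of all annotated transcripts (25433 bases for Slit2 and 6067 for Slit3). Before division by length, Slit2 exceeded Slit3 in adult ER+ libraries (218 and 91 against 63 and 83) and in puberty ER+ replicate 1 (607 against 576). Sema4c led the semaphorins in 11 libraries and Sema3c in 5. Ntn1 led the netrins in 12 libraries and Ntn4 in 6, and Unc5b led its family in 16. The leading Eph receptor and plexin were thus not among the genes with the largest basal differences below.

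Of the Eph receptors, Ephb1 (chromosome 9, 101922128 to 102354693, GRCm38) had the largest basal difference of all members. It stood in basal libraries at 832 and 730 at puberty, 495 and 568 in adults and 732 and 616 in pregnancy. In ER+ libraries it was at 8 and 0 at puberty, 0 and 9 in adults and 60 and 55 in pregnancy, and in ER- libraries at 15 and 4 at puberty, 7 and 13 in adults and 95 and 68 in pregnancy. Every basal library lay above every luminal one (log2 fold change 5.68 ± 0.50, adjusted p = 6.58e-07), and the luminal values of pregnancy were above those of puberty and adults. Ephb2, a close relative, was at 491 and 322 at puberty, 237 and 202 in adults and 554 and 431 in pregnancy in basal libraries and at 16 to 191 in luminal ones (log2 fold change 2.58 ± 0.25, adjusted p = 7.14e-07). Epha3, Epha4, Epha5, Epha7, Epha10, Ephb3, Ephb6 and Epha1 were also higher in basal cells, by 0.30 (Epha1) to 2.27 (Epha10), with libraries that overlapped between the layers. Epha10 was called within adults alone (log2 fold change 6.75, with luminal values of 0 to 9), with -0.36 at puberty and 0.41 in pregnancy. Epha1 was called within pregnancy alone (0.94), with -0.09 at puberty and 0.06 in adults. Epha2 (log2 fold change -0.25 ± 0.12, adjusted p = 0.113), Epha8 and Ephb4 were not called over the stages, and Epha2 was lower in basal cells at puberty (-1.51) and higher in adults (0.97), both called.

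Most Eph receptors that differed between the luminal populations were on the ER- side. Over the 3 stages 6 of 65 members were higher and 22 lower in ER+ than in ER- luminal cells (10.3% and 15.2% of all tested genes), with a median log2 fold change of -0.40 against -0.11 over all tested genes. Eph receptors counted 1 higher and 7 lower of 13. Of the 6 higher members 1 was called within all 3 stages and 2 within none. Of the 22 lower ones 12 were called within 2 stages, 0 within all 3 and 6 within none. In at least 1 stage the fold change had the opposite sign for Slit2 (of the higher members) and for Ephb3 and Robo2 (of the lower ones). Epha4 was at 2271 and 2153 at puberty, 1002 and 1448 in adults and 1316 and 1454 in pregnancy in ER- libraries and at 317 and 117 at puberty, 117 and 248 in adults and 637 and 863 in pregnancy in ER+ libraries. All ER- libraries lay above all ER+ libraries (log2 fold change -2.41 ± 0.23, adjusted p = 5.31e-06), with the groups nearest in pregnancy. Epha7 followed the same order, at 978 and 904 at puberty, 525 and 564 in adults and 357 and 391 in pregnancy in ER- and 140 and 127 at puberty, 148 and 174 in adults and 181 and 288 in pregnancy in ER+ libraries (log2 fold change -1.76 ± 0.14, adjusted p = 3.74e-07). Epha2, the leading receptor per kilobase, was at 8805 and 7788 at puberty, 4533 and 6817 in adults and 3715 and 4067 in pregnancy in ER- libraries. Its ER+ values of 3736 and 2750 at puberty, 2133 and 2607 in adults and 1659 and 2432 in pregnancy overlapped them over the stages but not within any stage (log2 fold change -1.19 ± 0.14, adjusted p = 1.54e-05). Epha8, the 1 Eph receptor higher in ER+ cells, was at 0 in 5 of 6 ER- libraries and at most 49 in ER+ libraries.

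Among the ephrins, the ligands of these receptors, Efna5 had the largest ER- difference. Its values were 2879 and 3037 at puberty, 1207 and 1949 in adults and 1017 and 939 in pregnancy in ER- libraries and 494 and 342 at puberty, 140 and 289 in adults and 496 and 659 in pregnancy in ER+ libraries, with no overlap (log2 fold change -2.18 ± 0.18, adjusted p = 9.25e-07). In basal libraries it was at 1534 and 1574 at puberty, 1387 and 2124 in adults and 1650 and 1481 in pregnancy, all within the ER- range. Efnb2, a ligand of EphB receptors and of Epha4, was lower in ER+ cells too (log2 fold change -1.45 ± 0.18, adjusted p = 2.36e-05), and Efnb1, on the X chromosome, was at 646 to 1248 in basal and 280 to 549 in luminal libraries (log2 fold change 1.21 ± 0.11, adjusted p = 6.58e-07). Efna1, a ligand of Epha2 and the leading ephrin per kilobase in 14 libraries, was the 1 ephrin lower in basal cells (log2 fold change -0.53 ± 0.08, adjusted p = 6.50e-05). Efna4 was higher in both ER+ against ER- (log2 fold change 1.15 ± 0.24) and basal against luminal cells (0.78 ± 0.21).

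**Figure D2:**
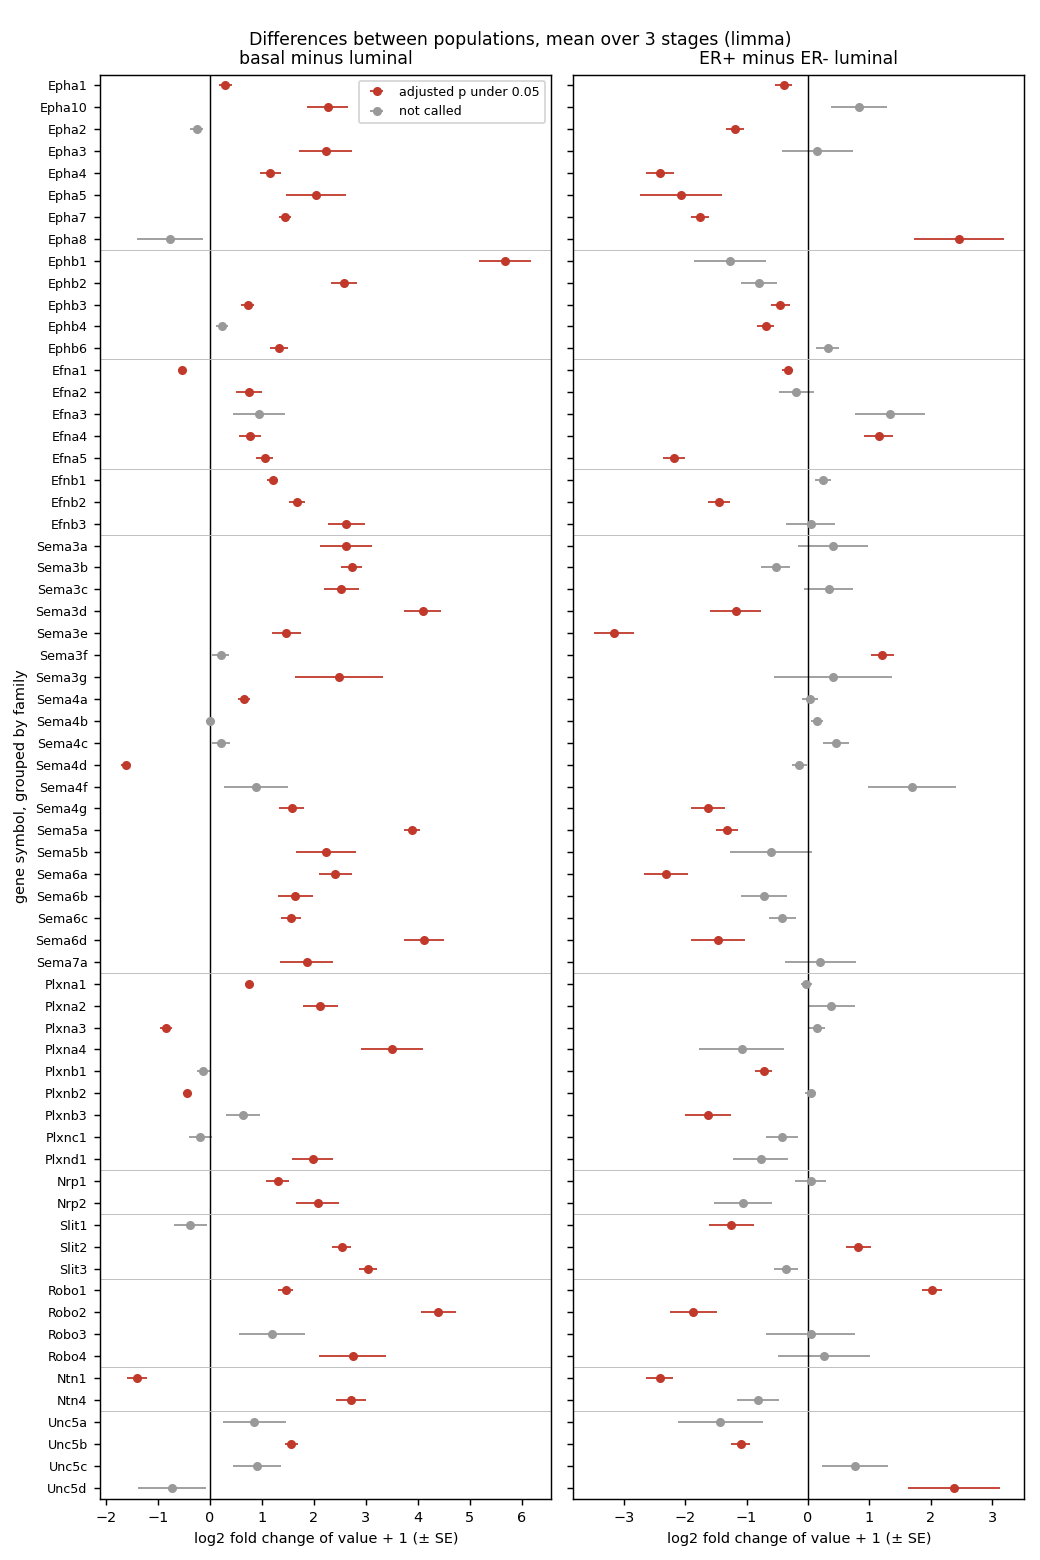
Log2 fold change of value + 1 with its standard error for each of the 65 tested guidance genes, by family, for basal minus luminal cells (left) and ER+ minus ER- luminal cells (right), each the mean over 3 stages. Red points are called and grey ones are not. On the left, points lie mostly to the right of 0 (44 higher, 5 lower), and on the right mostly to the left (6 higher, 22 lower).

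Semaphorins made up the longest part of the basal side. Sema6d, a membrane-bound semaphorin, was at 8096 and 6364 at puberty, 5233 and 4538 in adults and 10196 and 8441 in pregnancy in basal libraries. Its luminal values were 502 and 57 at puberty, 101 and 83 in adults and 1111 and 650 in pregnancy (ER+) and 843 and 402 at puberty, 355 and 452 in adults and 1356 and 1074 in pregnancy (ER-). The layers did not overlap (log2 fold change 4.12 ± 0.38, adjusted p = 1.01e-05). Sema5a, a semaphorin with thrombospondin repeats (chromosome 15, 32244810 to 32696341), was at 9693 and 7577 at puberty, 5504 and 5977 in adults and 7123 and 6981 in pregnancy in basal libraries. It was at 496 and 218 at puberty, 109 and 141 in adults and 793 and 524 in pregnancy in ER+ and at 1105 and 897 at puberty, 450 and 665 in adults and 744 and 781 in pregnancy in ER- libraries. Again every basal library exceeded every luminal one, and the difference had the lowest adjusted p of any member (log2 fold change 3.89 ± 0.16, adjusted p = 1.67e-10).

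The secreted class 3 semaphorins were basal as well, in 6 of 7 members. Sema3d was at 1167 and 953 at puberty, 214 and 207 in adults and 824 and 1010 in pregnancy in basal libraries and at 0 to 129 in luminal ones (log2 fold change 4.10 ± 0.36, adjusted p = 3.45e-07). Sema3b (log2 fold change 2.73 ± 0.21, adjusted p = 6.45e-08), Sema3c (log2 fold change 2.53 ± 0.34, adjusted p = 0.000166), Sema3a, Sema3e and Sema3g were higher too, with overlap between layers. Sema3e was called higher at puberty (2.14) and in adults (2.97), but its difference was -0.69 in pregnancy, not called, with 33 and 63 in basal and 41 to 125 in luminal libraries. Sema3g was called within adults alone (5.22), with 2.06 at puberty and 0.19 in pregnancy. Sema3f was not called between layers and was instead higher in ER+ than in ER- cells, at 1342 and 1428 at puberty, 1141 and 1213 in adults and 1647 and 830 in pregnancy in ER+ and 806 and 513 at puberty, 348 and 658 in adults and 525 and 481 in pregnancy in ER- libraries, without overlap (log2 fold change 1.21 ± 0.19, adjusted p = 0.000207). Sema3e went the other way, at 20 and 34 at puberty, 0 and 0 in adults and 41 and 88 in pregnancy in ER+ and 99 and 197 at puberty, 103 and 76 in adults and 125 and 68 in pregnancy in ER- libraries, with overlap in pregnancy (log2 fold change -3.16 ± 0.33, adjusted p = 4.70e-06). Sema6a (chromosome 18) was at 3528 and 3044 at puberty, 3010 and 3460 in adults and 3313 and 3077 in pregnancy in basal, 1974 and 1218 at puberty, 1323 and 1097 in adults and 1212 and 1420 in pregnancy in ER- and 652 and 96 at puberty, 94 and 108 in adults and 755 and 811 in pregnancy in ER+ libraries. It was thus highest in basal cells (log2 fold change 2.42 ± 0.31, adjusted p = 0.0001) and lowest in ER+ cells (log2 fold change -2.31 ± 0.36, adjusted p = 0.000789), although the ER+ difference lost its call without the 6 adult libraries (adjusted p = 0.086).

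Of the class 4 semaphorins some were higher in basal cells and others were not. Sema4d, which signals through Plxnb1, was the 1 semaphorin lower in basal cells, at 360 and 535 at puberty, 674 and 549 in adults and 452 and 534 in pregnancy in basal, 1636 and 1666 at puberty, 1397 and 1287 in adults and 1503 and 1428 in pregnancy in ER+ and 1775 and 1691 at puberty, 1289 and 1492 in adults and 1504 and 2133 in pregnancy in ER- libraries. Every luminal library lay above every basal one (log2 fold change -1.61 ± 0.10, adjusted p = 1.15e-08). Sema4b, Sema4c and Sema4f were not called in either comparison of populations over the stages, but within stages Sema4c was higher in ER+ than in ER- cells at puberty (log2 fold change 1.62, adjusted p = 0.00852) and Sema4f in adults (4.48, adjusted p = 0.0224). The adult Sema4f values were low, at 39 and 99 in ER+ and 0 and 7 in ER- libraries, where 1 read is worth up to 8.25. Sema4b lay at 771 to 1371 in all 18 libraries. Sema4a and Sema4g were higher in basal cells over the stages, Sema4a with -0.18 at puberty.

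Semaphorin receptors lay on both sides. In basal libraries Plxna2 was at 972 and 755 at puberty, 845 and 1013 in adults and 629 and 590 in pregnancy (log2 fold change 2.13 ± 0.33, adjusted p = 0.000222). Plxnd1, a receptor of Sema3e, was at 2420 and 2422 at puberty, 1917 and 1894 in adults and 2009 and 2289 in pregnancy there (log2 fold change 1.98 ± 0.39, adjusted p = 0.00191). In luminal libraries Plxna2 spanned 44 to 582 and Plxnd1 124 to 1700, and both reached their highest puberty luminal values in replicate 1. Plxnd1 lost its call without the 6 adult libraries (adjusted p = 0.0789), and Plxna2 was called within adults alone (3.41). Plxna1, Plxna4 and both neuropilins were higher in basal cells, Nrp2 within adults alone (3.71). Plxnb2 (log2 fold change -0.43 ± 0.08, adjusted p = 0.000456) and Plxna3 (log2 fold change -0.84 ± 0.11, adjusted p = 1.92e-05) were lower there, and Plxnb1 was not called between layers and was lower in ER+ than in ER- cells (log2 fold change -0.72 ± 0.14, adjusted p = 0.00118).

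Of the Slits and Robos, all but Slit1 and Robo3 were higher in basal than in luminal cells. Slit3 was at 4494 and 5100 at puberty, 1736 and 2129 in adults and 4120 and 3643 in pregnancy in basal, 576 and 1014 at puberty, 63 and 83 in adults and 1070 and 556 in pregnancy in ER+ and 593 and 1160 at puberty, 185 and 207 in adults and 535 and 579 in pregnancy in ER- libraries. The layers did not overlap (log2 fold change 3.05 ± 0.17, adjusted p = 4.24e-09), and adult luminal cells held the lowest values. Slit2 was at 789 to 2286 in basal and 91 to 986 in luminal libraries (log2 fold change 2.54 ± 0.18, adjusted p = 3.45e-08), and was higher in ER+ than in ER- cells over the stages (log2 fold change 0.82 ± 0.21, adjusted p = 0.00883). Within stages that difference was 2.12 at puberty, the 1 stage where it was called, -0.30 in adults and 0.65 in pregnancy. Robo2 was at 500 and 247 at puberty, 340 and 263 in adults and 1002 and 795 in pregnancy in basal libraries and at 0 to 143 in luminal ones (log2 fold change 4.40 ± 0.33, adjusted p = 5.64e-08). Robo4, best known from endothelial cells, was at 169 to 422 in basal libraries and at 239 and 16 in the ER+ replicates of puberty and 263 and 30 in the ER- ones (log2 fold change 2.75 ± 0.65, adjusted p = 0.00512). In pregnancy it was at 251 and 169 in basal, 191 and 94 in ER+ and 236 and 263 in ER- libraries, and it was called within adults alone (6.09), with 1.98 at puberty and 0.17 in pregnancy.

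Robo1, the mammary receptor of Slits, was high in both basal and ER+ cells at puberty and in adults. It was at 2023 and 1821 at puberty, 2095 and 1559 in adults and 1217 and 614 in pregnancy in ER+ libraries, 2220 and 2054 at puberty, 1578 and 1904 in adults and 2184 and 1931 in pregnancy in basal libraries and 380 and 225 at puberty, 525 and 445 in adults and 313 and 316 in pregnancy in ER- libraries. All ER+ libraries lay above all ER- libraries (log2 fold change 2.02 ± 0.16, adjusted p = 5.41e-07). It was the 1 member called between the luminal populations within pregnancy (log2 fold change 1.46 ± 0.28, adjusted p = 0.0132), as it was within puberty (2.71 ± 0.28) and adults (1.90 ± 0.28).

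**Figure D3:**
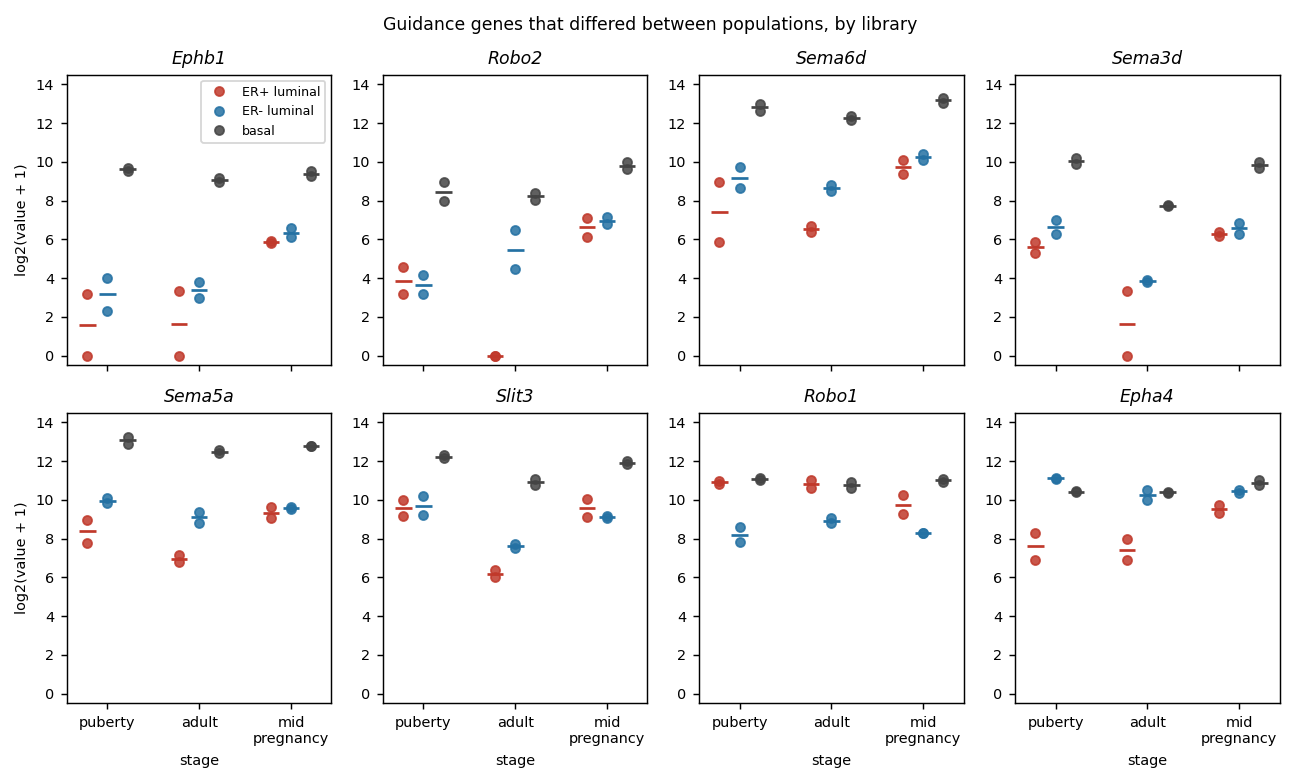
Log2(value + 1) of 8 guidance genes in each library (points), with a bar at the mean of the 2 replicates, by stage and population. For Ephb1, Robo2, Sema6d, Sema3d, Sema5a and Slit3 each basal point lies above each luminal one. Robo1 separates ER- from ER+ and basal cells, and Epha4 separates ER+ from ER- cells.

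To show the DNA from which members with clear population differences are transcribed, the 250 bases before the RefSeq start of 2 basal genes (Ephb1 and Sema5a) and 2 genes of ER- cells (Epha4 and Efna5) are printed from the RefSeq promoter table of GRCm38.p6, which matched 58 of 67 members by symbol. They are read 5′ to 3′ on the gene's own strand: Ephb1 at chr9:102354694-102354943 (minus strand), Sema5a at chr15:32244563-32244812 (plus), Epha4 at chr1:77515089-77515338 (minus) and Efna5 at chr17:62881318-62881567 (minus). The windows end where the gene begins in the GENCODE annotation, except that the last 3 bases of the Sema5a window lie inside it. Capitals mark matches, on either strand, to the GC box GGGCGG, the CCAAT box CCAAT and the E-box CANNTG, where N is any base. Matches of the same motif can overlap and then run together, and no matches of different motifs overlapped in these windows.
Ephb1: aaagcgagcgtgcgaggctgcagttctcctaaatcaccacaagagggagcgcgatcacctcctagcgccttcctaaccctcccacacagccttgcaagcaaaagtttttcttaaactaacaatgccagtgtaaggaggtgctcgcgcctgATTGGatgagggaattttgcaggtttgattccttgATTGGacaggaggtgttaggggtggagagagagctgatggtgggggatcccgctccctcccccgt
Sema5a: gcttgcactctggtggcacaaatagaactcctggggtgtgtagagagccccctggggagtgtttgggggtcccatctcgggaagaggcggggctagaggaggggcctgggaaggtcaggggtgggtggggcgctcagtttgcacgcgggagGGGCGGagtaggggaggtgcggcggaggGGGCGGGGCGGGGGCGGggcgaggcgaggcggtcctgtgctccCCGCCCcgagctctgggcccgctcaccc
Epha4: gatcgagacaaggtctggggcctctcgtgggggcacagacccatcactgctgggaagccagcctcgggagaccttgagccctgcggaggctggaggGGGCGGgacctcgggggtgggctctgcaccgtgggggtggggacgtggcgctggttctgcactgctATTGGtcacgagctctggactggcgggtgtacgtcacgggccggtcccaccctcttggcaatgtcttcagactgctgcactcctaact
Efna5: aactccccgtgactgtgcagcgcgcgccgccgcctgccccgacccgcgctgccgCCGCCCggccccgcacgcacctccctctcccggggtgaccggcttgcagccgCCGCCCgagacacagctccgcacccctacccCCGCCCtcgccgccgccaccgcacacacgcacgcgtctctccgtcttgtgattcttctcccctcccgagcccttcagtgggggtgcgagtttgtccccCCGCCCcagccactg
Sema5a held 5 GC boxes, overlapping ones included, and Efna5 held 4, and neither held another of these motifs. Ephb1 held 2 CCAAT boxes and no other motif, and Epha4 held 1 GC box and 1 CCAAT box. Of the bases, 72% were G or C in Sema5a, 74.8% in Efna5, 66% in Epha4 and 54% in Ephb1. A GC box was found in 70.3% of the 74 windows of members and in 32.7% of all 32851 windows in the table, a CCAAT box in 27% and 33.8%, and an E-box in 48.6% and 66.2%. Among the 48 windows of members higher in basal cells the shares were 66.7%, 29.2% and 45.8%. These are matches of letters and not binding sites.

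Ntn1 (chromosome 11, 68209364 to 68400823), a secreted netrin, was highest in ER- cells, at 11348 and 12682 at puberty, 4349 and 6165 in adults and 1440 and 1442 in pregnancy. It was at 1243 and 1074 at puberty, 373 and 883 in adults and 796 and 963 in pregnancy in ER+ libraries and at 518 and 809 at puberty, 945 and 1965 in adults and 409 and 484 in pregnancy in basal ones. All ER- libraries lay above all ER+ libraries (log2 fold change -2.42 ± 0.22, adjusted p = 5.36e-06), and Ntn1 was the 1 member of its family lower in basal than in luminal cells (log2 fold change -1.40 ± 0.19, adjusted p = 7.08e-05). Ntn4, a netrin of basement membranes, was higher in basal cells (log2 fold change 2.72 ± 0.29, adjusted p = 1.29e-05), at 5352 and 4908 at puberty, 1583 and 5532 in adults and 491 and 534 in pregnancy. Unc5b, a netrin receptor, was at 642 and 686 at puberty, 460 and 629 in adults and 550 and 418 in pregnancy in basal, 355 and 262 at puberty, 328 and 320 in adults and 206 and 207 in pregnancy in ER- and 145 and 163 at puberty, 78 and 108 in adults and 144 and 143 in pregnancy in ER+ libraries. Basal values lay above luminal ones (log2 fold change 1.57 ± 0.13, adjusted p = 1.55e-07) and ER- values above ER+ ones (log2 fold change -1.10 ± 0.15, adjusted p = 5.91e-05).

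Between the luminal populations, within puberty 4 members were higher and 13 lower in ER+ cells (5.59% and 6.84% of all genes), within adults 4 and 18 (5.49% and 11.5%), and within pregnancy 1 and 0 (1.64% and 0.211%), where 16 passed an unadjusted p under 0.05 in limma. No other tool was run within stages. ER- marker sums (5 genes) in ER+ libraries were 12045 and 27791 in pregnancy against 3493 to 6713 before it, and their part in this was not tested.

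The luminal libraries of pregnancy also held more basal markers, at 8.5% to 12.5% of the pregnancy basal mean. As a percent of their own pregnancy basal mean, Ephb1 was at 8.2% to 14.1% in these 4 libraries, Sema5a at 7.4% to 11.2%, Sema6d at 7% to 14.6%, Sema3d at 7.9% to 12.3% and Robo2 at 7.6% to 15.9%. Those 5 genes thus lay near the share of the basal markers. Slit3 was at 13.8% to 27.6%, Plxna2 at 25.4% to 52.5%, and Sema3c at 103% and 61.6% in ER+ libraries and 22.1% and 24.9% in ER- libraries. What the basal markers contributed was not tested.

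**Figure D4:**
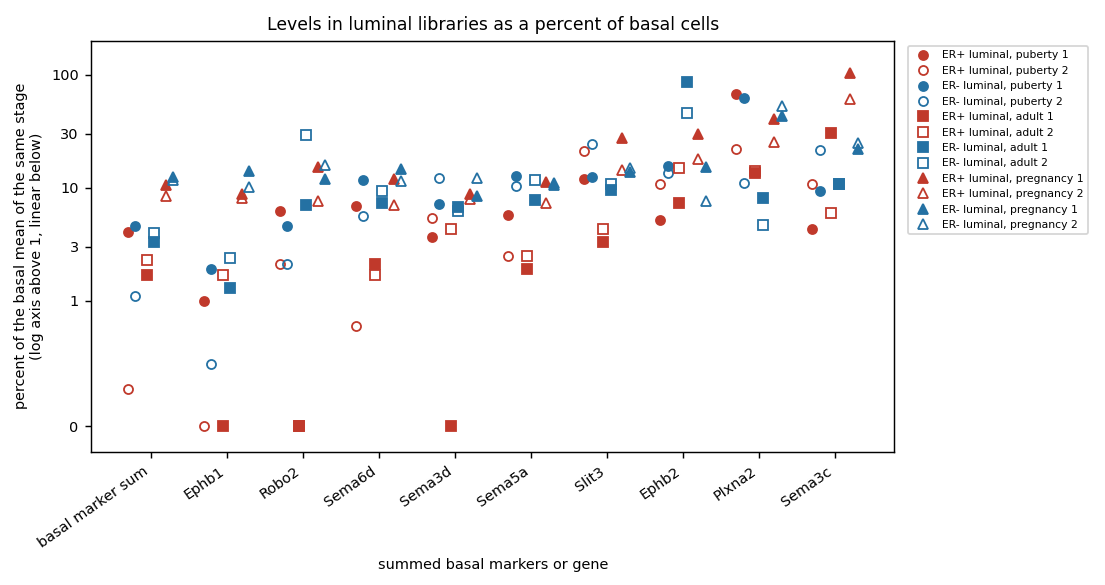
Level in each of the 12 luminal libraries as a percent of the basal mean of the same stage, for the summed basal markers and 9 guidance genes (filled symbols replicate 1, open symbols replicate 2; log axis above 1, linear below). In pregnancy (triangles) the marker sum lies at 8.5% to 12.5%, and Sema3c in ER+ libraries at 103% and 61.6%.

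Pregnancy was then compared with puberty and with the adult gland in each population; the comparisons share the pregnancy libraries, so their counts are not independent. In ER+ luminal cells 14 members were higher and 7 lower in pregnancy than in puberty (7.34% and 5.73% of all genes), and 25 higher and 6 lower than in adults (12.8% and 5.05%). The members' medians were 0.48 and 1.13, against 0.13 and 0.21 over all tested genes. Basal marker sums in ER+ libraries were 959 to 12468 at puberty, 2767 to 3730 in adults and 26659 to 33030 in pregnancy. Fibroblast sums were 18304 to 61581, 6890 to 8661 and 39691 to 81559, and endothelial sums 2962 to 13915, 1774 to 2199 and 6218 to 10248. Their part in these counts was not tested. Quantile normalization gave 10 higher and 8 lower against puberty. Against puberty the count of 21 fell to 11 without puberty ER+ replicate 2, to 13 without pregnancy ER+ replicate 1 and to 10 without pregnancy ER+ replicate 2. Against adults the count of 31 fell to 16 without pregnancy ER+ replicate 2.

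The gene with the largest change was Unc5d, a netrin receptor (chromosome 8, 28646717 to 29219636). It was at 2055 and 737 in the pregnancy ER+ libraries, 10 and 0 in puberty and 0 and 9 in adults. In pregnancy ER- libraries it was at 68 and 31, and elsewhere at most 27. Its relative Unc5a, low throughout, was at 54 and 46 in pregnancy ER+ libraries and at 0 and 11 in puberty, and was called higher. The fitted log2 fold change was 8.54 ± 1.31 against puberty and 8.61 ± 1.31 against adults, and the call held under each alternative. In recovered reads, 887 in pregnancy stood against 5 in puberty (ratio 256, exact 95% interval 109 to 792) and 1 in adults (ratio 352, 63 to 13900), intervals that cover counting error only. The same pregnancy ER+ libraries had ER+ marker sums of 80885 and 32233 and milk protein sums (7 genes) of 351374 and 845405.

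In ER+ cells 2 of 20 semaphorins were higher and 1 lower in pregnancy than in puberty, and 9 and 2 than in adults. Of 3 Slits, 1 was lower than in puberty and 1 higher than in adults. Sema3c was at 6280 and 3756 in pregnancy, 330 and 820 in puberty and 1110 and 215 in adults (log2 fold change 3.22 ± 0.69, adjusted p = 0.0111; log2 fold change 3.31 ± 0.69, adjusted p = 0.00806 against adults), values that did not overlap, and pregnancy basal libraries held 6205 and 5984. Its calls were lost without pregnancy ER+ replicate 1, against puberty also without puberty ER+ replicate 1 (alone or with its ER- counterpart), and against adults also with the compared groups fitted alone (adjusted p up to 0.0746 against puberty and 0.0841 against adults). Slit3 rose against adults, from 63 and 83 to 1070 and 556 (log2 fold change 3.40 ± 0.34, adjusted p = 1.25e-05), but in puberty it stood at 576 and 1014. Robo2 was at 0 in both adult ER+ libraries and at 138 and 68 in pregnancy, at least 8.58-fold higher against 3 reads over the group. Plxnc1, a receptor of Sema7a, rose against both stages, to 462 and 336 from 92 and 44 in puberty and 78 and 124 in adults (log2 fold change 2.61 ± 0.44, adjusted p = 0.000995). Ephb1 and Sema3d, at 1 read each in adult ER+ cells, rose to 36 reads (ratio 14.3, 2.41 to 580) and 48 reads (ratio 19.1, 3.26 to 768).

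Fewer members fell in ER+ cells. Sema4f, called against adults, held low values, at 39 and 99 in adults and 4 and 0 in pregnancy (log2 fold change -4.82 ± 1.25, adjusted p = 0.0143). Ephb6, an Eph receptor without kinase activity, went from 641 and 678 in puberty and 295 and 314 in adults to 138 and 107 in pregnancy (log2 fold change -2.43 ± 0.34, adjusted p = 0.000214), and its fall from puberty held under each alternative. Sema4a went from 809 and 916 in puberty and 900 and 891 in adults to 400 and 256 (log2 fold change -1.42 ± 0.23, adjusted p = 0.000737). Ntn4 fell from 723 and 575 in puberty to 100 and 81 (log2 fold change -2.83 ± 0.58, adjusted p = 0.00696), a call lost without pregnancy ER+ replicate 2 or both puberty luminal libraries of replicate 1 (adjusted p up to 0.0661). Robo1 fell from 2023 and 1821 in puberty and 2095 and 1559 in adults to 1217 and 614 (log2 fold change -1.06 ± 0.28, adjusted p = 0.0168 against adults). That call was lost without adult ER+ replicate 1 or pregnancy ER+ replicate 2, or with the compared groups fitted alone (adjusted p up to 0.242). Slit2 fell from 607 and 986 to 340 and 197 against puberty, and this was lost without replicate 2 of either stage (adjusted p up to 0.13).

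In ER- luminal cells, against puberty 7 members were higher and 9 lower (8.78% and 6.04% of all genes; median -0.08 against 0.03), and against adults 11 and 6 (8.89% and 5.51%; median 0.48 against 0.09). Scaling by median ratios gave 5 and 10 against puberty, and quantile normalization 11 and 10 against adults. The count of 17 against adults fell to 2 without adult ER- replicate 2, to 9 without pregnancy ER- replicate 1 and to 1 without pregnancy ER- replicate 2, and the count of 16 against puberty to 8 (1 higher and 7 lower) without replicate 2 of either stage. Basal marker sums in ER- libraries were 13800 and 3301 at puberty, 5465 to 6497 in adults and 36636 to 39230 in pregnancy, and their part was not tested.

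Of the called falls in ER- cells, those of the netrins were largest by log2 fold change against both stages. Ntn1 went from 11348 and 12682 in puberty through 4349 and 6165 in adults to 1440 and 1442 in pregnancy (log2 fold change -3.06 ± 0.39, adjusted p = 0.00037 against puberty). Ntn4 went from 1396 and 1323 in puberty to 71 and 128 (log2 fold change -3.82 ± 0.58, adjusted p = 0.00154), with 266 and 896 in adults. Both falls from puberty held under each alternative, whereas the falls from adults (log2 fold change -1.84 ± 0.39, adjusted p = 0.00899 for Ntn1) were lost without adult ER- replicate 2 or pregnancy ER- replicate 2, and for Ntn4 also without pregnancy ER- replicate 1 (adjusted p up to 0.0837 for Ntn1 and 0.155 for Ntn4). Ephb6 fell from 453 and 430 in puberty to 135 and 68 (log2 fold change -2.19 ± 0.34, adjusted p = 0.000726) and Ephb3 from 2447 and 2184 to 768 and 616 (log2 fold change -1.75 ± 0.25, adjusted p = 0.000455). Efna5, Epha7 and Epha2 fell as well, by 1.60, 1.33 and 1.09 on the log2 scale against puberty.

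Sema4c, a ligand of Plxnb2, rose in ER- cells. It went from 1009 and 507 in puberty and 1589 and 1040 in adults to 3644 and 5073 in pregnancy (log2 fold change 2.59 ± 0.36, adjusted p = 0.00061 against puberty). The call against puberty held under each alternative, whereas the call against adults was lost without adult ER- replicate 2 or pregnancy ER- replicate 2. Against puberty, Plxnb2 rose from 7414 and 7110 to 9996 and 11839 (log2 fold change 0.58 ± 0.16, adjusted p = 0.0225) and Plxnb1 from 2459 and 2111 to 4007 and 5114 (log2 fold change 0.99 ± 0.24, adjusted p = 0.0127). Robo2 (log2 fold change 3.30 ± 0.66, adjusted p = 0.0044) and Slit1 (log2 fold change 2.68 ± 0.64, adjusted p = 0.0114) rose at low levels, from 17 and 8 to 108 and 143 and from 19 and 13 to 88 and 128. The calls of Plxnb1, Robo2 and Slit1 were lost without replicate 2 of either stage (adjusted p up to 0.137). Against adults, Robo4 stood at 236 and 263 against 7 and 0, which is 140 reads against 1 (ratio 76.1, 13.4 to 3030), and endothelial marker sums were 6542 to 6931 against 843 to 1095, with their part not tested.

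In basal cells, against puberty 0 members were higher and 2 lower in limma (0.668% and 1.4% of all genes, with a median of -0.21 against -0.02). At an unadjusted p under 0.05 there were 3 and 6, and edgeR on recovered reads called 0 and 3. With the puberty and pregnancy basal libraries fitted alone, 15 members were called, against 9 in ER+ cells fitted the same way, so the order of the populations by count depends on the fit. Ntn4 was at 491 and 534 in pregnancy and 5352 and 4908 in puberty (log2 fold change -3.32 ± 0.58, adjusted p = 0.0137), and Sema3e at 33 and 63 against 360 and 203 (log2 fold change -2.54 ± 0.57, adjusted p = 0.0304). Both calls were lost without any 1 of the 4 libraries (adjusted p up to 0.11 and 0.288), with 6 to 9 members then under an unadjusted p of 0.05.

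Against adults 5 members were higher and 4 lower in basal cells (2.92% and 4.34% of all genes; median 0.24 against -0.09), and quantile normalization gave 10 and 5. Epha2 fell from 6192 and 8096 in adults to 2582 and 2305 (log2 fold change -1.54 ± 0.24, adjusted p = 0.00215), and stood at 1522 and 2146 in puberty. Its ligand Efna1 fell from 1375 and 1144 to 679 and 616 (log2 fold change -0.95 ± 0.16, adjusted p = 0.00324), with 644 and 698 in puberty. For both genes the adult values were thus the highest of the 3 stages, and both falls held under each alternative. Ntn4, at 1583 and 5532 in adults, and Ntn1, at 945 and 1965, were called lower in pregnancy, calls lost without adult basal replicate 2 or either pregnancy basal library, or with the compared groups fitted alone (adjusted p up to 0.204 and 0.262). The count of 9 fell to 2 without adult basal replicate 2 or pregnancy basal replicate 1 and to 3 without pregnancy basal replicate 2. Fibroblast marker sums in basal libraries were 63994 to 66926 at puberty, 16153 to 21635 in adults and 145757 to 158555 in pregnancy. Luminal marker sums there were 17185 to 43048, 51396 to 63733 and 24809 to 32848, in the same order. ER- marker sums were 1494 to 3288, 9068 to 14886 and 7474 to 11727. The part of these markers was not tested.

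**Figure D5:**
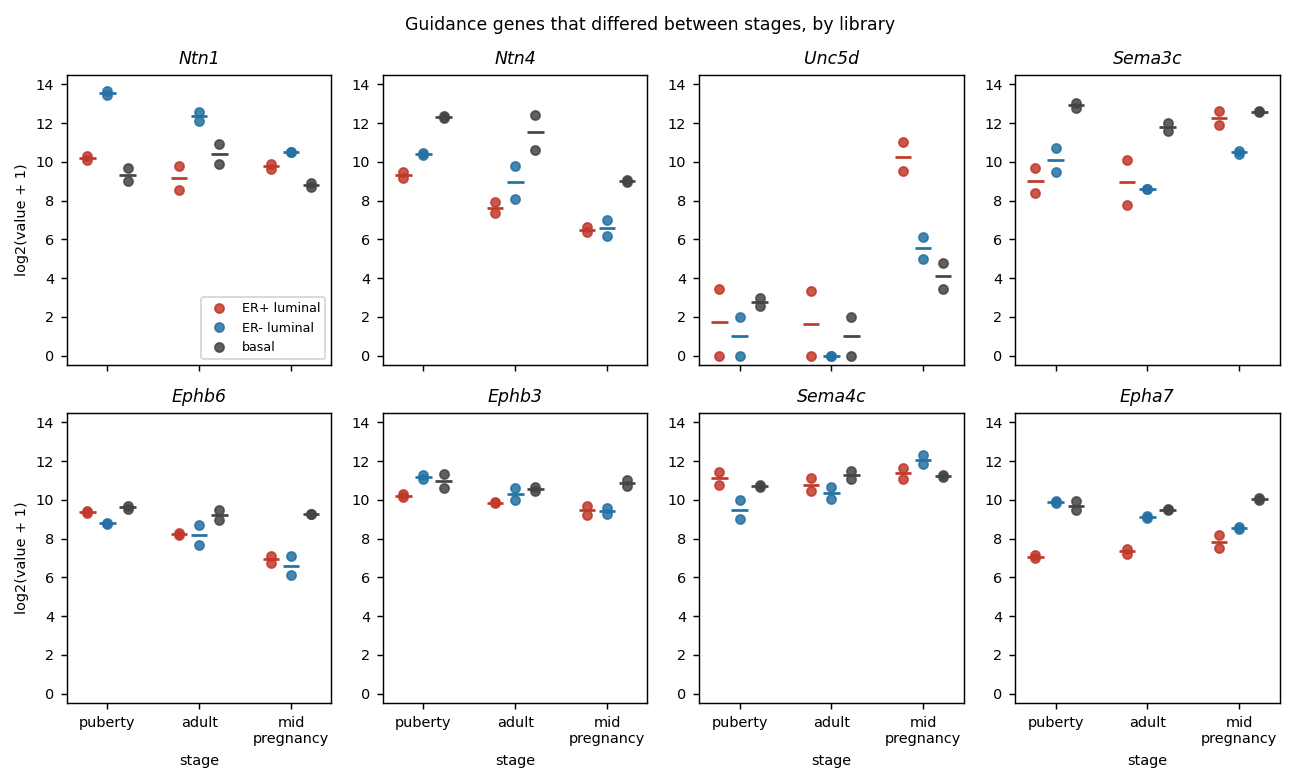
Log2(value + 1) of 8 guidance genes in each library (points), with a bar at the mean of the 2 replicates, by stage and population. Ntn1 steps down from puberty to pregnancy in ER- cells, Ntn4 is lower in pregnancy than at puberty in all 3 populations, and Unc5d is high in pregnancy ER+ libraries (2055 and 737).

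Whether the change from puberty to pregnancy differed between populations was tested as an interaction. Between ER+ and ER- luminal cells it differed for 6 members, 5 with a more positive change in ER+ cells and 1 with a more negative one (1.47% and 0.847% of all genes). Epha7 rose in ER+ and fell in ER- cells (difference of log2 changes 2.10 ± 0.34, adjusted p = 0.00389), and this held under each alternative. Ntn1 (2.66 ± 0.55, adjusted p = 0.0243), Epha4 (2.61 ± 0.56, adjusted p = 0.028), Efna5 (2.07 ± 0.45, adjusted p = 0.0243) and Plxnc1 (2.73 ± 0.63, adjusted p = 0.0321) had the same sign, and Sema4c the opposite one (-2.33 ± 0.50, adjusted p = 0.0305). The count of 6 fell to 2 without puberty ER+ replicate 2, puberty ER- replicate 1, pregnancy ER+ replicate 2 or pregnancy ER- replicate 1, and to 1 without replicate 2 of ER- cells at either stage. Between basal and luminal cells 2 members had a more positive change in basal cells and 0 a more negative one (0.255% and 0.488% of all genes), Ephb6 (1.99 ± 0.41, adjusted p = 0.0376) and Sema4a (1.54 ± 0.28, adjusted p = 0.0204). In limma 8 and 7 passed an unadjusted p under 0.05, and edgeR called 4 and 1. The count of 2 fell to 0 without puberty ER- replicate 2, puberty basal replicate 1 or either pregnancy basal library (12 to 15 members then under an unadjusted p of 0.05), and to 1 without puberty ER- replicate 1 or pregnancy ER- replicate 2. It rose to 5 without puberty ER+ replicate 1 and to 8 without replicate 1 of both puberty luminal populations.

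Of 53 listed partners and effectors of these pathways, 51 were tested. Between layers 21 were higher in basal cells and 13 lower (20.9% and 21.5% of all genes), with a median of 0.28. Dpysl3 and Dpysl2, collapsin response mediators that act below semaphorin receptors, were higher in basal cells (log2 fold change 4.09 ± 0.14, adjusted p = 2.07e-11; log2 fold change 2.78 ± 0.15, adjusted p = 1.76e-09), with Dpysl3 at 3966 to 8425 in basal and 124 to 983 in luminal libraries. The netrin-G gene Ntng2 (log2 fold change 4.39 ± 0.50, adjusted p = 1.04e-05), the oxidoreductase gene Mical1 and the kinase gene Fyn were higher as well. Kdr, a receptor of endothelial cells, was higher in basal cells too (log2 fold change 2.81 ± 0.53, adjusted p = 0.0016), and at 793 and 70 in the ER+ and 931 and 129 in the ER- replicates of puberty. Neo1, the netrin receptor, was at 4046 to 6245 in basal and 2470 to 7067 in luminal libraries (log2 fold change 0.62 ± 0.09, adjusted p = 7.77e-05), whereas Dcc was at 0 in 17 of 18 libraries.

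Between the luminal populations 11 partners were higher in ER+ cells and 19 lower (10.3% and 15.2% of all genes; median -0.12). Flrt3, a binding partner of Unc5 receptors, was at 965 to 3331 in ER- and 117 to 543 in ER+ libraries (log2 fold change -2.57 ± 0.14, adjusted p = 2.50e-08), and Srgap3, a GTPase activator that binds Robo1, was lower in ER+ cells too (log2 fold change -2.32 ± 0.16, adjusted p = 1.28e-07). Adam10, the protease that cleaves ephrins, was at 7017 to 25133 in ER+ and 3325 to 6986 in ER- libraries (log2 fold change 1.68 ± 0.14, adjusted p = 1.22e-06), and the glypican gene Gpc1 was higher in ER+ cells (log2 fold change 1.87 ± 0.15, adjusted p = 6.31e-07). From puberty to pregnancy 9 partners rose and 8 fell in ER+ cells (7.34% and 5.73% of all genes), 4 and 10 in ER- cells (8.78% and 6.04%) and 2 fell in basal cells (1.4%). From adults to pregnancy the counts were 15 and 7 in ER+ cells (12.8% and 5.05%), 7 and 8 in ER- cells (8.89% and 5.51%), and 2 and 5 in basal cells (2.92% and 4.34%). Gpc1 fell from puberty to pregnancy in ER+ cells (log2 fold change -1.05 ± 0.27) and rose in ER- cells (1.97 ± 0.27), and the interaction was called (-3.02 ± 0.38, adjusted p = 0.000704).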

How the data were processed

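RNA-seq of sorted mouse mammary cells (18 libraries, 9 groups of 2) was read from 1 table that the authors deposited, with a whole-number signal for each gene in each library. STAR, Picard, HTSeq and the build GRCm38 (mm10) are named per the submitters' processing notes. The sources used here do not give settings, versions, annotation release or use of strand. Totals lay between 19819213 and 19881049 per library, and low values rose in steps, so the deposited signal was read as counts that had been scaled to 20000000 and then rounded upward. Inverting this gave back between 99.6% and 99.9% of a library's non-zero values (by chance, between 12.1% and 57%). A stricter step test was met by 3 libraries and missed by 15, so read depths, bounds, ratios of reads and edgeR results rest on the inferred rounding. Reads recovered this way amounted to 2406265 to 11292217 per library, and 1 read was worth 1.75 to 8.25 signal units. Of 46868 rows, 790 repeated a gene ID, and 46257 IDs were kept.

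The test was limma 3.58.1 in R 4.3.3 (empirical Bayes with its trend and robust options) on log2(value + 1), over the 22315 genes that reached 10 in 2 or more libraries. It used 1 mean per group. A gene was called where its 2-sided p, adjusted by Benjamini-Hochberg over all tested genes, was under 0.05. Folds of low genes on this scale depend on the added 1, which is less than 1 read is worth. They can overstate or understate a change, most where values are 0. Bounds use 3 reads over a group. Ratios of reads carry exact Clopper-Pearson intervals. Positions are from GENCODE vM21 (GRCm38, counted from 1). Members and lists were chosen with earlier results of these data known. For each comparison of populations, genes were named if called, without overlap between the compared libraries and with a higher group mean of at least 100, up to 10 per direction by fold change, and for stages and interactions up to 4. The text prints a part of these and describes the other members by family. Alternatives were other pseudocounts, filters, scalings, a replicate block, the compared groups alone, stages or single libraries left out, and edgeR 4.0.16 on recovered reads. The fits were tested on simulated data. Summaries were made in Python 3.11.15 with numpy 2.4.6 and pandas 2.3.3, and figures with matplotlib 3.10.9.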

Additional observations from a re-analysis of the deposited data

Results flagged for a closer look

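For 8 members the change from puberty to pregnancy differed between populations in a direct test of that difference (limma, adjusted over 22315 genes), given here as a difference of log2 changes. Between basal and luminal cells it was 1.99 for Ephb6, which fell in both luminal populations and stood at 830 and 730 in puberty and 623 and 623 in pregnancy in basal cells. It was 1.54 for Sema4a, at 573 and 803 against 982 and 918 in basal cells. Between ER+ and ER- luminal cells it was 2.61 for Epha4, 2.10 for Epha7, 2.07 for Efna5, 2.66 for Ntn1 and 2.73 for Plxnc1, and -2.33 for Sema4c. For Epha4, Epha7 and Efna5 the ER+ values lay below the ER- values at both stages, with the smaller gap in pregnancy. Sema4c was the other way round, with higher values in ER+ cells at puberty (called within that stage) and in ER- cells in pregnancy (not called within it). ER+ marker sums in ER+ libraries were lower in pregnancy (80885 and 32233) than at puberty (171102 and 215693), and their part in these differences was not tested.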

How the results depend on the processing

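Of 68 named gene results, 31 kept their call under every alternative run, 37 lost it under 1 or more, and 0 reversed. Counts of called members with each compared library left out in turn ran from 23 to 31 for ER+ against ER- cells, 45 to 49 for basal against luminal cells, 10 to 17, 8 to 12 and 0 to 0 for pregnancy against puberty (ER+, ER-, basal; in the last case 6 to 9 at an unadjusted p under 0.05 in limma), 16 to 25, 1 to 13 and 2 to 9 against adults, and 0 to 5 and 1 to 9 for the interactions (basal minus luminal, ER+ minus ER-). With the compared groups alone, the counts were 9 in ER+ and 15 in basal cells against puberty, 10 in ER+ and 27 in ER- cells against adults, and 5 for basal minus luminal. With a pseudocount of 5, basal cells against puberty counted 4 and basal minus luminal 5. With quantile normalization, basal cells against adults counted 15 and basal minus luminal 4, and with edgeR 16 and 5. Without replicate 1 of both puberty luminal populations, an alternative chosen after seeing the data, basal minus luminal counted 8. The cause of these shifts was not tested. Under quantile normalization the all-gene median of the log2 fold change went from -0.03 to -0.17 for basal against luminal cells, from -0.11 to 0.03 for ER+ against ER- cells, and from 0.21 to -0.11 for pregnancy against adults in ER+ cells, where the members' median went from 1.13 to 0.58. It also went from 0.13 to -0.05 against puberty in ER+ cells, from 0.09 to -0.03 against adults in ER- cells and from -0.14 to 0 for basal minus luminal.

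Samples with the same replicate number deviated together (correlation over 0.1) in 1 of 36 pairs of groups (range -0.088 to 0.269). That pair was ER+ with ER- luminal cells at puberty (0.269), where replicate 1 stood apart in both. The numbers were not taken as pairs. A replicate block is 1 term over all groups and does not model a pairing within puberty alone. A fit with a replicate block counted 28, 49, 22, 15, 2, 30, 17, 9, 3 and 7 called members in the order above, against 28, 49, 21, 16, 2, 31, 17, 9, 2 and 6 without it. Depth limits the adult luminal libraries most, where 1 read is worth up to 8.25 signal units.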
